A study of Mus musculus with 6 samples.

Results

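The translation factors described here are the protein-coding genes whose mouse symbol begins with Eif1 to Eif6, Eef1 or Eef2. The kinases that phosphorylate eIF2 and the genes Eif5a and Eef1e1 were left out by rule. In all, 62 genes met this name rule. Of these, 55 had a gene row that averaged 10 TPM or more across the 6 libraries and are the members, out of 22288 genes in the table. TPM is a transcript abundance per transcript length relative to the library total, so levels of different genes can be compared. By role the members were 14 genes of the eIF4 group with the 4E-binding proteins, 8 of eIF2 and eIF2B, 14 of eIF3, 9 of elongation and 10 other initiation factors.

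Each library held total RNA of wild-type C57BL/6 spleen CD8 T cells, which mature into cytotoxic killers of virus-infected and tumour cells. They were naive when purified and had been activated through CD3 and CD28 with antibodies for 48 h, in medium with recombinant mouse IL-2. In 3 libraries the culture also held 10 nM ponatinib, a kinase inhibitor developed against BCR-ABL that blocks several other tyrosine kinases, and in 3 it held DMSO, the solvent. No source used here says whether the replicates came from separate mice or cultures, so the p-values measure the spread between these libraries, which may be technical.

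Cytosolic protein synthesis begins when eIF2, loaded with GTP and the initiator tRNA, joins eIF3, eIF1, eIF1A and eIF5 on the small ribosomal subunit. The eIF4F complex, made of the cap-binding protein eIF4E, the scaffold eIF4G and the helicase eIF4A, brings the mRNA, and 4E-binding proteins block it by occupying eIF4E until mTOR phosphorylates them. Elongation then uses eEF1A to deliver aminoacyl-tRNAs and eEF2 to move the ribosome along. T cell activation is known to raise protein synthesis strongly.

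A first view of the sequences around the starts of these genes came from the RefSeq promoter table (GRCm38.p6). It covers 250 bases before to 50 bases after each gene's start and held 42 of the 55 members. Eif4ebp1, Eif4g2, Eif4e3, Eif3j2, Eef1g and Eef1akmt1 were among the members it did not hold, so no motif was searched in them. The E-box CACGTG, a hexamer that MYC and related factors can bind and that reads the same on both strands, was found in 11 of the 42 members (26.2%). It was found in 681 of 5431 tested genes with a promoter in the table (12.5%) and in 2187 of all 27025 genes of the table (8.09%). In the 250 bases before the start alone, it was found in 10 members (23.8%), against 10.5% of tested genes and 6.86% of all genes. Eif3a was the member without a match there. A gene is called higher or lower with ponatinib when its adjusted p in limma, with Benjamini-Hochberg adjustment over all 6816 tested genes on log2(TPM + 1), was under 0.05, which held for 27.3% (higher) and 9.13% (lower) of all tested genes. Of the 11 members with the E-box, 5 were higher (Eif4e, Eif4g1, Eif4a1, Eif3a and Eif1b), 2 were lower (Eef2 and Eef2k) and 4 were not called (Eif4h, Eif3f, Eif3k and Eef1akmt4). Stretches that overlap an annotated exon or reach beyond the 250 bases before the start were left out. Eif4e, Eif1b and Eef2k, which also held the hexamer before the start, are therefore not shown. The following 60-base stretches show the same hexamer, in capitals, before the RefSeq start of genes called in both directions. They belong to a scaffold and a helicase gene that were higher and an elongation factor gene that was lower.
Eif4g1: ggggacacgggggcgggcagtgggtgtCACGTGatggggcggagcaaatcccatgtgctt
Eif4a1: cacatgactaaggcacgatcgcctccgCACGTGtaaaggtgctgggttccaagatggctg
Eef2: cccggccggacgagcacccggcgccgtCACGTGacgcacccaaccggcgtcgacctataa
The Eif4g1 stretch is chr16:20672646-20672705 on the plus strand, with the E-box beginning 54 bases before the RefSeq start and lying between exons inside the Eif4g1 gene as GENCODE draws it. The Eif4a1 stretch is chr11:69672580-69672639 on the minus strand, with the E-box 189 bases before the start. The Eef2 stretch is chr10:81176561-81176620 on the plus strand, with the E-box 43 bases before the start, and neither of these overlaps an annotated exon.

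Other motifs were less frequent in the members. The cyclic AMP response element TGACGTCA, searched on both strands, was found in 1 of 42 members (2.38%), Eef2, against 3.89% of tested genes and 2.03% of all genes of the table. The ATF4 composite element TGATGNAA, also searched on both strands, was found in 2 members (4.76%), Eif2s3x and Eef2k, against 2.52% of tested genes and 4.51% of all genes. Of the 12 members with at least 1 of these 3 motifs, 2 held more than 1 (Eef2 and Eef2k), and in 0 of them did matches overlap. A pyrimidine run, a C followed by at least 5 bases that are each C or T, beginning within 2 bases of the start on the sense strand, was found in 5 members (11.9%), which were Eef1a1, Eif4g1, Eif3f, Eif2b5 and Eif2s3x, against 7.40% of tested genes and 6.73% of all genes. Such runs at the very start of an mRNA are known to make its translation depend on mTOR, and the RefSeq start is an annotated position, not one measured in these cells.

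With ponatinib, 15 of the 55 translation factors were higher and 8 were lower. Across all 6816 genes averaging 10 TPM or more, 27.3% were higher and 9.13% were lower, which is 36.4% in either direction. The share of higher members thus equals that of all genes, and the share of lower members was 14.5%. The 3 ponatinib libraries lay wholly above the 3 DMSO libraries in 21 members and wholly below them in 11, and over all genes the groups failed to overlap in 51.3%. The median log2 fold change, ponatinib over DMSO, was 0.06 over the members and 0.10 over all genes, so the typical gene in the table was slightly higher with ponatinib. When libraries were scaled by medians of ratios, which sets the typical gene near 0 (median over all genes 0.0027), the split of members was 7 higher and 11 lower, and that of all genes was 1059 higher and 1138 lower, against 1859 higher and 622 lower as TPM. The number of higher members was 8 without ponatinib replicate 2, 7 without ponatinib replicate 3 and 9 without DMSO replicate 1. In these settings the number of higher genes over the whole table dropped as well, to 1092, 1037 and 1174.

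**Figure D1:**
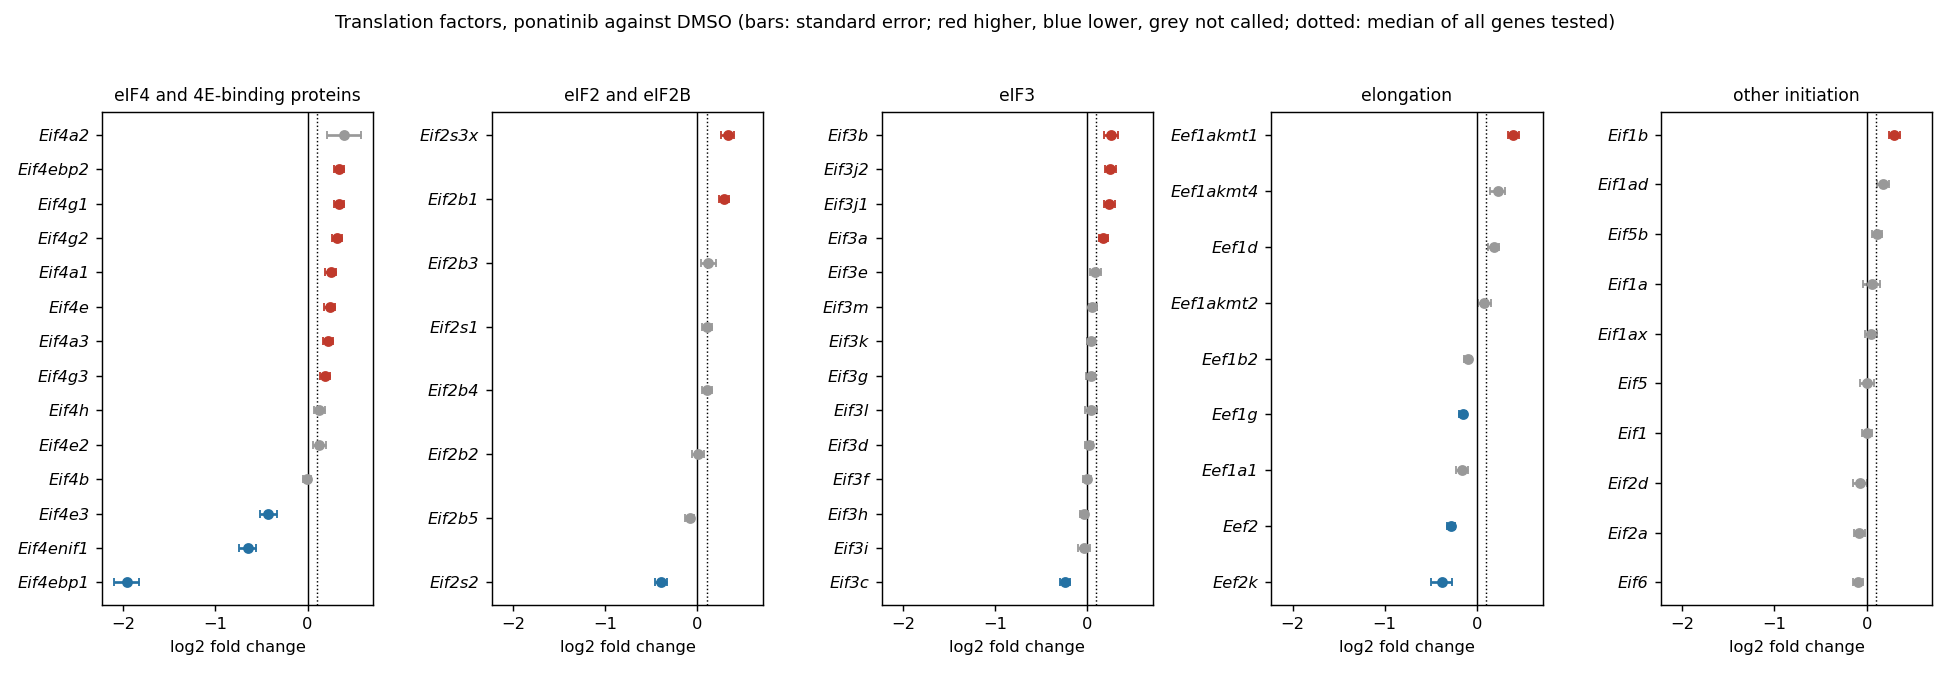
Log2 fold change (ponatinib over DMSO) of the 55 translation factors, sorted within their role groups, with points for the fitted value and bars for its standard error. Eif4ebp1, at -1.96, stands well to the left of every other member, which lie between -0.65 and 0.40.

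The members differed widely in abundance, and the most abundant ones belonged to elongation. Eef1a1 held the first rank with a mean of 10224 TPM with ponatinib and 11453 TPM with DMSO. It was followed by Eef2, Eef1b2, Eef1g and the helicase gene Eif4a1. The level of Eef1b2 includes transcripts listed in rows of their own. Its gene row alone averaged 645 TPM, below the gene rows of Eef1g (1597 TPM) and Eif4a1 (1199 TPM). The lowest member was Eef2k, with 13.5 TPM with ponatinib and 18.0 TPM with DMSO. All members together took 2.93% ± 0.0176 of the library's TPM with ponatinib and 3.07% ± 0.0973 with DMSO (SD, n = 3 each). Without Eef1a1 and Eef2 the sum was 16027 ± 405 TPM with ponatinib and 15598 ± 74.1 TPM with DMSO. Of the 7 genes under the minimum, Eif2s3y, Eif4e1b and Eef1a2 were listed at 0 in each library, and the nearest, Eef2kmt, had a mean gene row of 8.32 TPM. The nearest above the minimum was Eef2k, with a mean gene row of 13.6 TPM.

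Libraries of the same treatment lay together. The first principal component of all tested genes (72.7% of the variance) split ponatinib from DMSO, and the second (16.9%) set DMSO replicate 3 (14.1) apart from DMSO replicates 1 (-6.27) and 2 (-9.89). Mitochondrially encoded transcripts took 7.16% to 8.19% of TPM with ponatinib, against 9.76%, 10.7% and 4.78% in DMSO replicates 1, 2 and 3. The defining T cell markers were abundant. The 8 CD8 T cell markers include Cd3 and T cell receptor genes. They summed to 4345 to 4818 TPM with ponatinib and to 3560 to 3670 TPM with DMSO. Of these 8, 5 were higher (62.5%, against 27.3% of all genes). B cell markers (8 in the table) summed to 136 to 151 TPM with ponatinib and to 91.0 to 100.5 TPM with DMSO, mostly Cd74. The 4 CD4 T cell markers summed to 18.4 to 22.9 TPM with ponatinib and to 5.49 to 14.9 TPM with DMSO. The 9 myeloid markers summed to 94.8 to 96.4 TPM with ponatinib and to 111 to 115 TPM with DMSO, mostly Cst3, and the 5 NK markers to 34.2 to 43.4 TPM with ponatinib and to 18.4 to 30.9 TPM with DMSO, mostly Eomes. The 8 erythroid and platelet markers summed to 4.23 to 8.37 TPM with ponatinib and to 0.853 to 1.89 TPM with DMSO. None of these lists was at 0 throughout, and their part in the results below was not tested. In bulk RNA, fewer cells of a type and less RNA per cell cannot be told apart.

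The eIF4 group held the member with the largest change, and it moved in both directions. Of its 14 genes, 7 were higher (50%) and 3 were lower (21.4%), against 27.3% and 9.13% of all genes, and the median log2 fold change was 0.21, against 0.10 over all genes. The lower ones were Eif4ebp1, Eif4enif1 and Eif4e3, and the higher ones were Eif4e, Eif4g1, Eif4g2, Eif4g3, Eif4a1, Eif4a3 and Eif4ebp2. With medians-of-ratios scaling, Eif4g1, Eif4g2 and Eif4ebp2 remained higher and all 3 lower genes remained lower. The number higher was 4 without ponatinib replicate 2, 3 without ponatinib replicate 3, 4 without DMSO replicate 1 and 4 without DMSO replicate 2. The number lower was 3 in each of these. Over all genes the number higher also dropped in these settings, from 1859 to between 1037 and 1383.

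Eif4ebp1 (chr8:27260329-27276674, plus strand, GRCm38) encodes 4E-BP1, which binds eIF4E and blocks assembly of eIF4F when it is not phosphorylated. Its level was 19.4, 21.6 and 21.1 TPM in the ponatinib libraries, against 79.5, 69.9 and 105 TPM in the DMSO libraries. All ponatinib libraries lay far below all DMSO libraries, and DMSO replicate 3 was the highest. The mean was 20.7 ± 1.13 TPM with ponatinib and 84.7 ± 18.1 TPM with DMSO (SD, n = 3 each), which is 4.09-fold lower with ponatinib. The log2 fold change was -1.96 (SE 0.14, adjusted p = 0.000141), and it was -1.80 without DMSO replicate 3.

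Eif4ebp2, on chromosome 10, encodes the second 4E-binding protein, which acts on eIF4E in the same way. It went in the opposite direction, with 115, 112 and 107 TPM in the ponatinib libraries and 87.8, 89.6 and 85.4 TPM in the DMSO libraries. The groups did not overlap, and the log2 fold change was 0.34 (SE 0.05, adjusted p = 0.00249). The remaining paralogue, Eif4ebp3, was below the minimum, with a mean of 0.363 TPM over all libraries. Eif4ebp1 therefore made up 14.4%, 16.2% and 16.4% of the summed 4E-binding protein transcripts in the ponatinib libraries, against 47.2%, 43.8% and 55.1% in the DMSO libraries.

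The target of these proteins, Eif4e, encodes the protein that binds the mRNA cap. It was at 218, 230.3 and 245 TPM in the ponatinib libraries, against 199.5, 198 and 189 TPM in the DMSO libraries, and the groups did not overlap. Its log2 fold change was 0.24 (SE 0.06, adjusted p = 0.0129). The call was lost without ponatinib replicate 3 (adjusted p = 0.0508) and with medians-of-ratios scaling (adjusted p = 0.119).

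Set against Eif4e within each library, the summed 4E-binding protein transcripts gave ratios of 0.619, 0.581 and 0.524 with ponatinib and 0.843, 0.807 and 1.005 with DMSO. The 3 ponatinib libraries lay below the 3 DMSO libraries, with means of 0.575 ± 0.0474 with ponatinib and 0.885 ± 0.105 with DMSO (SD, n = 3 each). The part due to Eif4ebp1 alone was 0.0891, 0.0939 and 0.0861 with ponatinib and 0.398, 0.354 and 0.554 with DMSO. For Eif4ebp2 alone, the ratios were 0.528, 0.486 and 0.436 with ponatinib and 0.440, 0.454 and 0.451 with DMSO, and these groups overlapped. The ratios are built from the genes above and were not tested.

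**Figure D2:**
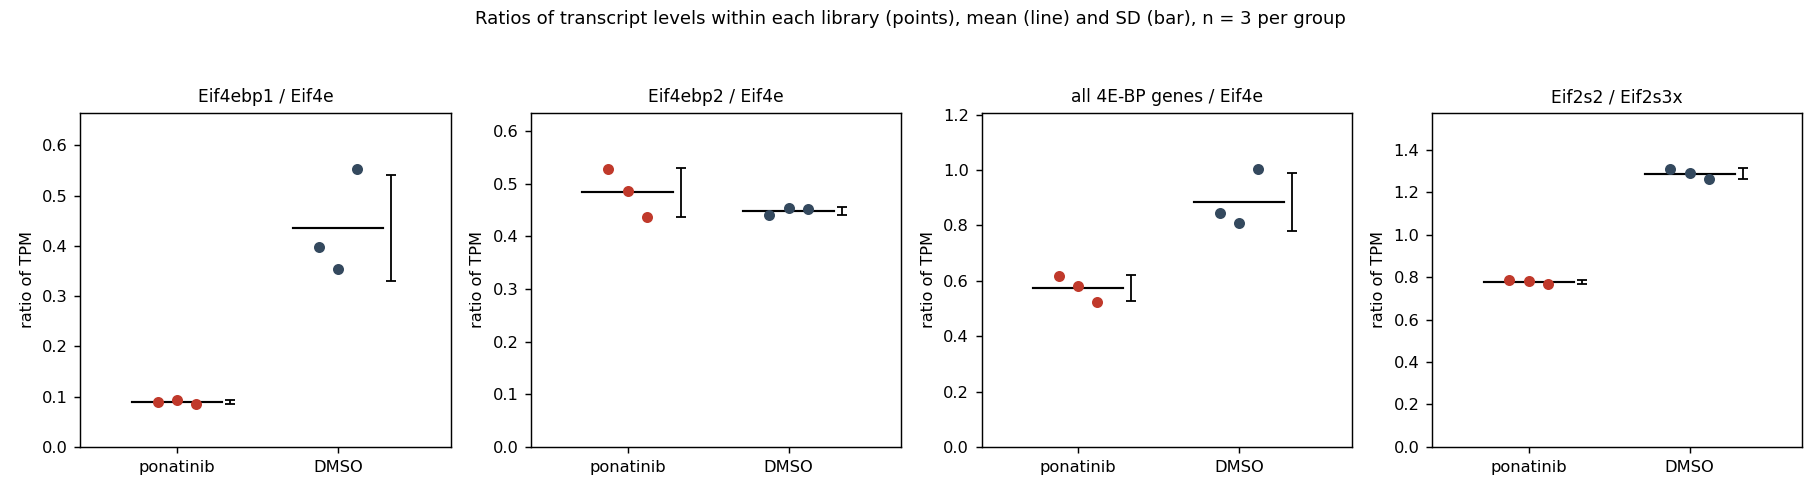
Ratio of TPM within each library for Eif4ebp1, Eif4ebp2 and all 4E-binding protein genes to Eif4e, and for Eif2s2 to Eif2s3x, with points for libraries, lines for means and bars for SD (n = 3 per group). The ponatinib libraries lie below the DMSO libraries in every panel other than that of Eif4ebp2 to Eif4e, where they overlap.

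Eif4enif1 encodes 4E-T, the protein that carries eIF4E into the nucleus and to P-bodies and represses translation of bound mRNAs. It was at 59.5, 57.9 and 62.2 TPM in the ponatinib libraries, against 90.2, 84.8 and 110 TPM in the DMSO libraries. Each ponatinib library was below each DMSO library, with a 1.59-fold lower mean and a log2 fold change of -0.65 (SE 0.09, adjusted p = 0.00209), which was -0.54 without DMSO replicate 3. Eif4e3, a cap-binding paralogue of eIF4E, was low throughout, with 16.9, 14.6 and 16.7 TPM in the ponatinib libraries and 23.2, 20.2 and 22.4 TPM in the DMSO libraries. The groups did not overlap and the log2 fold change was -0.43 (SE 0.09, adjusted p = 0.00861). Eif4e2, the paralogue known as 4EHP that binds caps without supporting initiation, was not called, with 209 TPM with ponatinib and 192 TPM with DMSO (log2 fold change 0.13, adjusted p = 0.203).

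All 3 scaffold genes were higher. Eif4g1 (chr16:20668313-20692884, plus strand), the main scaffold of eIF4F, was at 371, 417 and 409 TPM in the ponatinib libraries and 315, 326 and 302 TPM in the DMSO libraries, without overlap (log2 fold change 0.34, SE 0.06, adjusted p = 0.00393). Eif4g2 encodes DAP5, a relative of eIF4G1 that lacks the eIF4E-binding region. It was at 571, 600.1 and 613 TPM in the ponatinib libraries and 478, 499 and 452 TPM in the DMSO libraries, again without overlap (log2 fold change 0.32, adjusted p = 0.00336). Eif4g3, a less abundant scaffold, was at 37.4 TPM with ponatinib and 32.6 TPM with DMSO (log2 fold change 0.19, adjusted p = 0.0317). Its call was lost when any library other than DMSO replicate 3 was left out, with adjusted p between 0.0674 and 0.12, with medians-of-ratios scaling (0.227) and with quantile normalization (0.151). Eif4g1 made up 38.7% ± 0.833 of their sum with ponatinib and 38.2% ± 0.187 with DMSO (SD, n = 3 each).

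Of the helicase genes, Eif4a1 (chr11:69666936-69672423, minus strand) was the most abundant initiation factor gene, with 1376, 1451 and 1547 TPM in the ponatinib libraries and 1204, 1160 and 1312 TPM in the DMSO libraries. The lowest ponatinib library stood just above the highest DMSO library (log2 fold change 0.25, adjusted p = 0.0171). Eif4a3, a paralogue that acts in the exon junction complex on spliced mRNA, was at 244, 255 and 266 TPM in the ponatinib libraries and 211, 213 and 232 TPM in the DMSO libraries, also without overlap (log2 fold change 0.22, adjusted p = 0.0191). Both calls were lost without ponatinib replicate 2 (adjusted p = 0.0568 for Eif4a1 and 0.0672 for Eif4a3), ponatinib replicate 3 (0.0701 and 0.0774), DMSO replicate 1 (0.0607 and 0.0747) or DMSO replicate 2 (0.0531 and 0.059), and with medians-of-ratios scaling (0.0503 and 0.0683). Eif4a2 was at 85.6, 80.1 and 85.8 TPM in the ponatinib libraries and 58.8, 48.9 and 88.8 TPM in the DMSO libraries, where DMSO replicate 3 lay above every ponatinib library. It was not called (log2 fold change 0.40, SE 0.19, adjusted p = 0.13), and without DMSO replicate 3 its log2 fold change was 0.63 (adjusted p = 0.000461). The cofactors of the helicase were not called: Eif4b had a log2 fold change of -0.01 (adjusted p = 0.883) and Eif4h one of 0.13 (adjusted p = 0.117, and 0.0348 without ponatinib replicate 1).

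**Figure D3:**
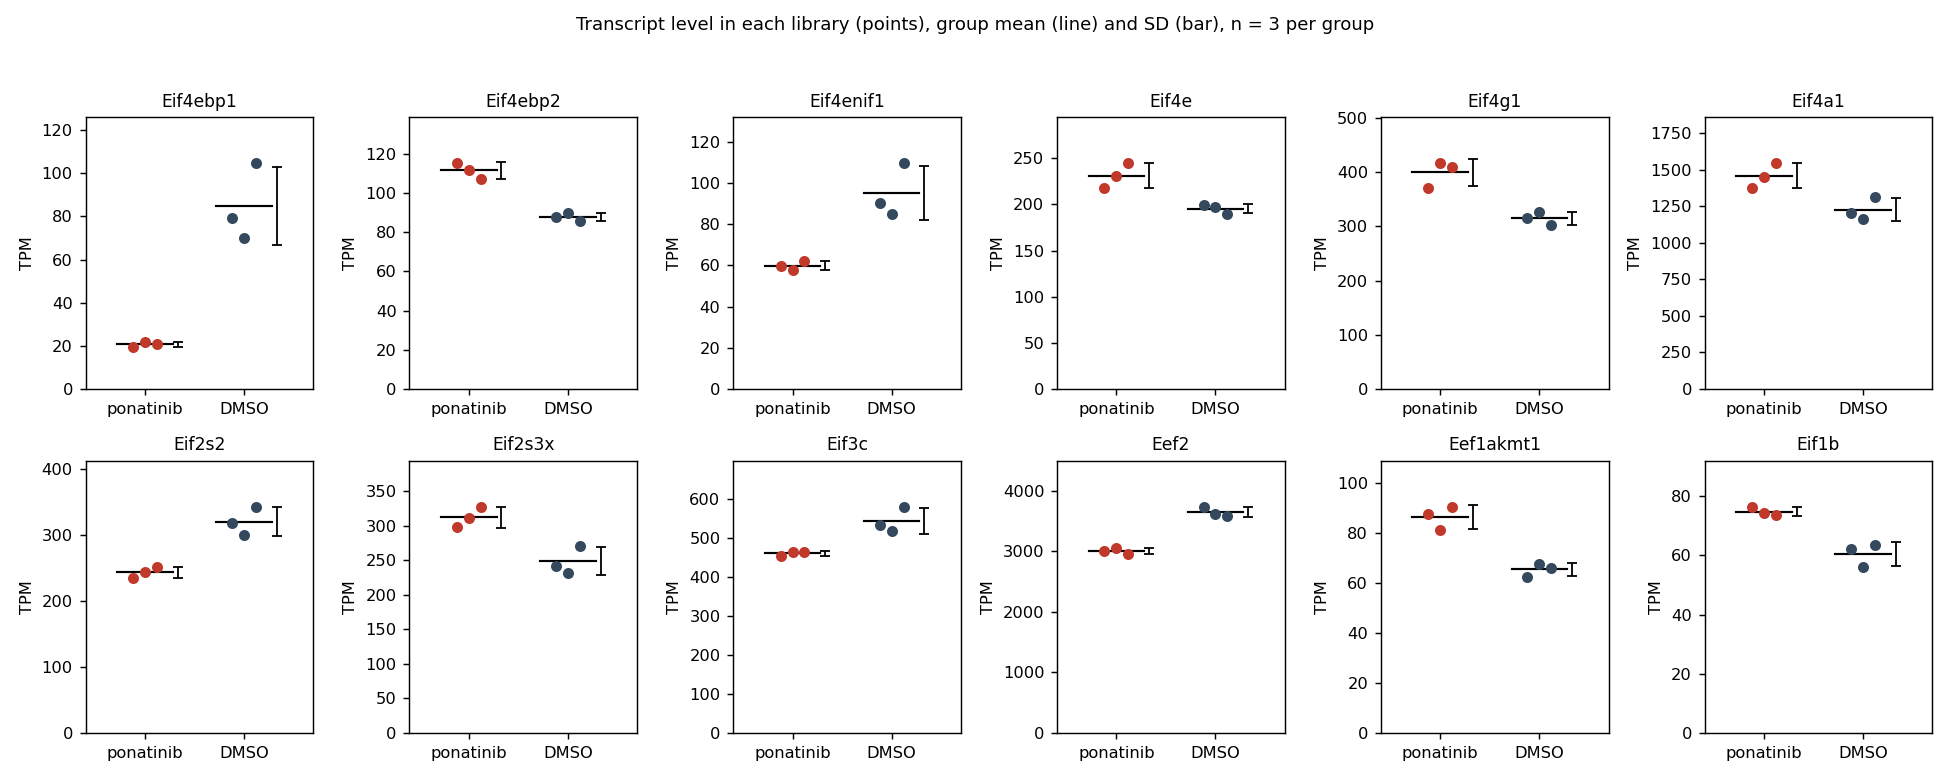
TPM of 12 translation factor genes in each library (points), with the mean (line) and SD (bar), n = 3 per group and a separate linear axis from 0 for each gene. Eif4ebp1, Eif4enif1, Eif2s2, Eif3c and Eef2 are lower in all 3 ponatinib libraries, and Eif4ebp2, Eif4e, Eif4g1, Eif4a1, Eif2s3x, Eef1akmt1 and Eif1b are higher in all 3.

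The 3 subunits of eIF2, which are present in equal numbers in the complex, did not move together. Eif2s2 (chr2:154871410-154892935, minus strand) encodes the beta subunit, which contacts eIF5 and eIF2B. It was at 234, 243 and 251 TPM in the ponatinib libraries, against 318, 299 and 343 TPM in the DMSO libraries, and the groups were well apart. Its log2 fold change was -0.39 (SE 0.06, adjusted p = 0.0025). Eif2s3x (chrX:94188707-94212862, minus strand) encodes the gamma subunit, which binds GTP and the initiator tRNA. It was at 298, 311 and 328 TPM in the ponatinib libraries and 243, 232 and 271 TPM in the DMSO libraries, also without overlap but in the other direction (log2 fold change 0.33, SE 0.07, adjusted p = 0.00808). Both calls held under all 15 alternatives of scaling, filtering and left-out libraries.

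Within each library, the ratio of Eif2s2 to Eif2s3x was 0.785, 0.783 and 0.766 with ponatinib and 1.31, 1.29 and 1.26 with DMSO. The gamma subunit transcript was thus the more abundant one in every ponatinib library and the beta subunit transcript in every DMSO library. Eif2s1 encodes the alpha subunit, whose phosphorylation stalls initiation in stress. It was the lowest of the 3 in all libraries, with 136.1, 144 and 145 TPM with ponatinib and 133, 135.5 and 125 TPM with DMSO. The lowest ponatinib library lay barely above the highest DMSO library, without a call (log2 fold change 0.11, adjusted p = 0.147). The Y-linked copy of the gamma subunit gene, Eif2s3y, was listed at 0 in each library.

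eIF2B is the exchange factor that reloads eIF2 with GTP. Eif2b1 encodes its alpha subunit, one of the subunits through which it senses phosphorylated eIF2. The level of Eif2b1 was 79.8, 83.2 and 86.2 TPM in the ponatinib libraries and 67.7, 69.3 and 65.8 TPM in the DMSO libraries. The groups did not overlap (log2 fold change 0.29, adjusted p = 0.00529). Eif2b5, the catalytic epsilon subunit, was at 80.1, 86.0 and 84.8 TPM with ponatinib and 88.1, 90.4 and 87.2 TPM with DMSO. These groups did not overlap either, but the difference was not called (log2 fold change -0.08, adjusted p = 0.248) and was called lower only with medians-of-ratios scaling (-0.18, adjusted p = 0.0394). The other subunits, Eif2b2, Eif2b3 and Eif2b4, had log2 fold changes of 0.01, 0.12 and 0.10 and were not called. In this group of 8, 2 were higher (25%) and 1 was lower (12.5%), close to the 27.3% and 9.13% of all genes, with a median of 0.11 against 0.10 over all genes. The summed TPM of the group was 1048 ± 42.6 with ponatinib and 1031 ± 35.1 with DMSO (SD, n = 3 each).

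eIF3, the largest initiation factor, holds the small subunit ready for the mRNA. Of its 14 genes, 4 were higher (28.6%) and 1 was lower (7.14%), close to the 27.3% and 9.13% of all genes. The summed TPM was 4778 ± 69.3 with ponatinib and 4685 ± 89.6 with DMSO (SD, n = 3 each). Apart from the loosely bound subunit j, group means of its members ranged from 223 to 605 TPM. Eif3c was the lower one. It encodes a core subunit that contacts eIF1 and eIF5, and it was at 454, 464 and 466 TPM in the ponatinib libraries and 534, 519 and 582 TPM in the DMSO libraries. The groups did not overlap (log2 fold change -0.24, adjusted p = 0.0107), and the call held under all 15 alternatives.

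The higher eIF3 genes were Eif3a and Eif3b, core subunits that hold the complex together, and both genes for subunit j. Eif3a was at 247, 247 and 260.3 TPM with ponatinib and 224, 215 and 229 TPM with DMSO (log2 fold change 0.17, adjusted p = 0.0243). Eif3b was at 431, 470 and 462 TPM with ponatinib and 394, 408 and 338 TPM with DMSO, with DMSO replicate 3 the lowest (log2 fold change 0.26, adjusted p = 0.0294). Eif3j1 and Eif3j2 had log2 fold changes of 0.24 and 0.25 (adjusted p = 0.0163 and 0.0123), but they are near-identical copies between which reads may be split, so their separate levels are uncertain. All 4 higher calls were lost with medians-of-ratios scaling (adjusted p between 0.0766 and 0.234), with quantile normalization (between 0.0549 and 0.148), without ponatinib replicate 2 (between 0.0556 and 0.101) and without ponatinib replicate 3 (between 0.0521 and 0.099). Without DMSO replicate 1, 1 of the 4 was called, and without DMSO replicate 2 the call of Eif3a was lost (adjusted p = 0.0786). The other 9 subunit genes, Eif3d to Eif3i and Eif3k to Eif3m, had log2 fold changes between -0.04 and 0.09 and were not called.

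Of the 9 elongation genes, 3 were lower (33.3%, against 9.13% of all genes) and 1 was higher (11.1%, against 27.3%), with a median log2 fold change of -0.10, against 0.10 over all genes. The number lower was 1 without ponatinib replicate 1 and 1 without ponatinib replicate 2. It was 2 without ponatinib replicate 3 and 2 without either DMSO replicate 1 or 2. With medians-of-ratios scaling it was 5. Over all genes the number lower was 622 in the main fit and between 433 and 609 with these libraries left out. With medians-of-ratios scaling 1138 of all genes were lower. With quantile normalization the median was 0.0069. Eef2 (chr10:81176631-81182498, plus strand), which moves the ribosome by 1 codon, was at 3000, 3059 and 2947 TPM in the ponatinib libraries and 3737, 3613 and 3576 TPM in the DMSO libraries. The groups were far apart relative to their spread (log2 fold change -0.28, SE 0.04, adjusted p = 0.00221), and this call held under all 15 alternatives.

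Eef2k, the kinase that phosphorylates and slows eEF2, was itself lower, at 13.7, 13.9 and 12.8 TPM with ponatinib and 14.98, 18.5 and 20.6 TPM with DMSO. The log2 fold change was -0.38 (adjusted p = 0.0346). It is close to the minimum level, and its call was lost without ponatinib replicate 1 (adjusted p = 0.0827), replicate 2 (0.0788) or replicate 3 (0.119), without DMSO replicate 2 (0.0859), with gene rows alone (0.0619) and with no filter on low genes (0.0775).

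Eef1a1, which delivers aminoacyl-tRNAs to the ribosome, was the most abundant member. It was at 10527, 10014 and 10130 TPM with ponatinib and 11249, 10613 and 12497 TPM with DMSO. The groups did not overlap, but the difference was not called (log2 fold change -0.16, adjusted p = 0.0841), while it was called without DMSO replicate 2 (adjusted p = 0.0366) and with medians-of-ratios scaling (adjusted p = 0.0131). With quantile normalization its direction turned (log2 fold change 0.11, adjusted p = 0.333). Its nucleotide exchange complex eEF1B was uneven. The scaffold subunit Eef1g was at 1463, 1515 and 1556 TPM with ponatinib and 1699, 1686 and 1662 TPM with DMSO (log2 fold change -0.16, adjusted p = 0.0227). That call was lost without ponatinib replicate 1 (adjusted p = 0.0654) or replicate 2 (0.0809) and without DMSO replicate 1 (0.0838) or replicate 2 (0.0586). Of the exchange subunits, Eef1b2 had a log2 fold change of -0.10 (adjusted p = 0.0692) and Eef1d one of 0.18 (adjusted p = 0.0559). Eef1b2 was called lower with medians-of-ratios scaling (-0.20, adjusted p = 0.0158) and with robust empirical Bayes (adjusted p = 0.0478), and its log2 fold change was 0.0069 with quantile normalization (adjusted p = 0.908). Eef1d was called higher with gene rows alone (adjusted p = 0.0495) and, right at the threshold, with robust empirical Bayes, and had log2 fold changes of 0.08 with medians-of-ratios scaling (adjusted p = 0.496) and 0.09 with quantile normalization (adjusted p = 0.424).

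The higher elongation gene was Eef1akmt1, a methyltransferase that modifies a lysine of eEF1A, at 87.5, 81.3 and 90.6 TPM with ponatinib and 62.6, 67.7 and 66.1 TPM with DMSO. The groups did not overlap (log2 fold change 0.40, adjusted p = 0.00274), and the call held under all 15 alternatives. Its relatives Eef1akmt2 and Eef1akmt4, which modify other lysines of eEF1A, had log2 fold changes of 0.08 and 0.23 (adjusted p = 0.41 and 0.0572). Summed over the group, elongation factors were at 17840, 17469 and 17516 TPM with ponatinib and 19587, 18828 and 20566 TPM with DMSO. The eIF4 group summed to 4037, 4279 and 4407 TPM with ponatinib and 3715, 3697 and 3833 TPM with DMSO. The ponatinib libraries were thus the lower ones in the first sum and the higher ones in the second, and each sum is led by its most abundant genes.

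Of the 10 other initiation factors, 1 was higher (10%, against 27.3% of all genes) and 0 were lower by limma (against 9.13%). The number lower was also 0 under each of the 15 alternatives, and 2 had an unadjusted p under 0.05 in either direction. The median log2 fold change was 0.03, against 0.10 over all genes. Eif1b, a paralogue of the start codon selection factor eIF1, was at 76.5, 74.4 and 73.5 TPM in the ponatinib libraries and 62.3, 55.9 and 63.5 TPM in the DMSO libraries, without overlap (log2 fold change 0.30, adjusted p = 0.00857). The main gene Eif1 was at 609.7, 631 and 607 TPM with ponatinib and 581, 604 and 659.8 TPM with DMSO. Its groups overlapped (log2 fold change 0.00, adjusted p = 0.962). Eif5, the GTPase activator of eIF2, was at 194, 192 and 213 TPM with ponatinib and 204, 179 and 214 TPM with DMSO, also overlapping (log2 fold change 0.01, adjusted p = 0.938). Eif6, which keeps the large subunit from joining too early, was at 241, 265 and 263 TPM with ponatinib and 274, 282 and 263 TPM with DMSO (log2 fold change -0.09, adjusted p = 0.23). Eif1a, Eif1ax, Eif1ad, Eif2a, Eif2d and Eif5b lay between -0.08 and 0.18 and were not called, though Eif1ad was called higher without DMSO replicate 3 (adjusted p = 0.0188).

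The deposited table listed some transcripts in rows of their own beside the gene rows, and gene levels above are their sum. There were 92 such rows for the members, of which 17 in 11 genes averaged 10 TPM or more. In a fit over all 7348 gene and transcript rows at that level, 34.7% were called in either direction, and of the 17 rows 5 were higher and 4 were lower. The 2 called transcripts of Eef1a1 went in opposite directions. Eef1a1-207 was at 9.92, 6.77 and 44.8 TPM with ponatinib and 115, 55.9 and 83.9 TPM with DMSO (log2 fold change -2.39, adjusted p = 0.0265), with ponatinib replicate 3 well above the other two ponatinib libraries. Eef1a1-208 was at 79.7, 80.5 and 93.05 TPM with ponatinib and 53.6, 52.1 and 46.4 TPM with DMSO (log2 fold change 0.72, adjusted p = 0.0018). They were the only listed transcripts of this gene and together made up 1.11% of its TPM.

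For other members the listed transcripts carried a large part of the level. Eef1b2-205, annotated as a target of nonsense-mediated decay, was at 1241, 1221 and 1230 TPM with ponatinib and 1320, 1359 and 1320 TPM with DMSO (log2 fold change -0.12, adjusted p = 0.0454), while the Eef1b2 gene row was not called (-0.07, adjusted p = 0.276). Listed transcripts held 66.6% of this gene's TPM. Eif4g1-225 was at 38.3, 48.2 and 50.2 TPM with ponatinib and 29.0, 29.9 and 21.02 TPM with DMSO, with no overlap (log2 fold change 0.76, adjusted p = 0.011), in the same direction as the Eif4g1 gene row (0.27, adjusted p = 0.0121). Eef1d-215 was higher as well (0.54, adjusted p = 0.0195). In Eif4a2, 74.9% of the TPM lay in listed transcripts, and of the 4 tested rows annotated as targets of nonsense-mediated decay, Eef1b2-205 was the called one.

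**Figure D4:**
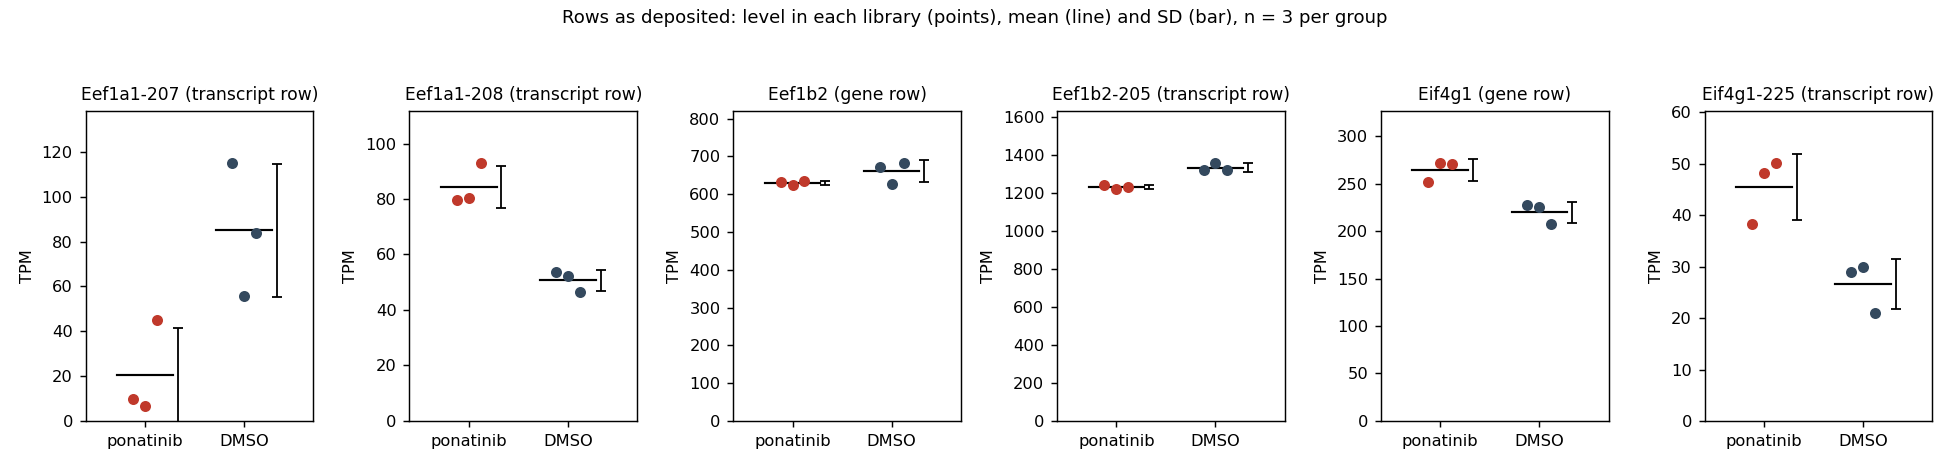
TPM of 4 transcript rows and 2 gene rows as deposited, in each library (points), with the mean (line) and SD (bar, cut off at 0), n = 3 per group and a separate axis from 0 for each row. The ponatinib libraries lie below the DMSO libraries for Eef1a1-207 and Eef1b2-205 and above them for Eef1a1-208, the Eif4g1 gene row and Eif4g1-225, while the Eef1b2 gene row overlaps.

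Neighbouring parts of the translation machinery were described by the same counts, to be read against 27.3% higher and 9.13% lower over all genes. Of 9 tested genes for release, recycling and poly(A) binding, 5 were higher and 0 were lower (5 at an unadjusted p under 0.05 in either direction), among them Gspt1, which encodes the release factor eRF3a (227 TPM with ponatinib, 191 TPM with DMSO, log2 fold change 0.25, adjusted p = 0.00589), and Abce1, the recycling factor (152 TPM with ponatinib, 125 TPM with DMSO, log2 fold change 0.28, adjusted p = 0.0135). That number was 0 with medians-of-ratios scaling, 2 without ponatinib replicate 2, 2 without ponatinib replicate 3 and 3 without DMSO replicate 1. Of 16 initiation helpers and repressors, 6 were higher and 1 was lower. The higher ones held both kinds. The repressor gene Paip2b was at 22.9 TPM with ponatinib and 15.7 TPM with DMSO (log2 fold change 0.52, adjusted p = 0.00504). Its more abundant paralogue Paip2 was the lower gene of the list, at 110 TPM with ponatinib and 134 TPM with DMSO (log2 fold change -0.28, adjusted p = 0.00829). The helicase gene Ddx3x, known to help ribosomes scan structured leaders, was at 255 TPM with ponatinib and 162 TPM with DMSO (log2 fold change 0.66, adjusted p = 0.00145), and Abcf1, which acts with eIF2, at 234 TPM with ponatinib and 173 TPM with DMSO (log2 fold change 0.43, adjusted p = 0.00165). Of 8 mitochondrial translation factors 1 was higher, Gfm1, and its call was lost without any 1 of the ponatinib replicates 1, 2 and 3 or DMSO replicate 1. None of 10 diphthamide and hypusine enzymes, which modify elongation factors, was called by limma, and 1 had an unadjusted p under 0.05.

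Most tRNA synthetase genes were lower. Of 20 cytosolic tRNA synthetases, the enzymes that charge tRNAs with amino acids, 12 were lower (60%) and 1 was higher, with a median log2 fold change of -0.32. Sars, the serine enzyme, was at 259 TPM with ponatinib and 461 TPM with DMSO (log2 fold change -0.82, adjusted p = 0.000676), and Gars, the glycine enzyme, at 225 TPM with ponatinib and 363 TPM with DMSO (log2 fold change -0.68, adjusted p = 0.00129). Cars, the cysteine enzyme, was at 48.9 TPM with ponatinib and 97.2 TPM with DMSO (log2 fold change -0.98, adjusted p = 0.00155). Of 80 cytosolic ribosomal protein genes, matched by symbol, 13 were lower (16.2%) and 2 were higher, with a median of -0.05. The match by symbol also took in like-named genes such as Rpl7l1, which was 1 of the 2 higher (log2 fold change 0.48, adjusted p = 0.000879). Rps2 was at 6815 TPM with ponatinib and 8638 TPM with DMSO (log2 fold change -0.34, adjusted p = 0.0018). The number of lower ribosomal protein genes was 35 with medians-of-ratios scaling and between 5 and 8 with 1 library other than DMSO replicate 3 left out. With quantile normalization 7 were lower and 12 were higher, and without DMSO replicate 3 the number higher was 7. The shares of members and of these lists were set side by side and not tested against each other.

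**Figure D5:**
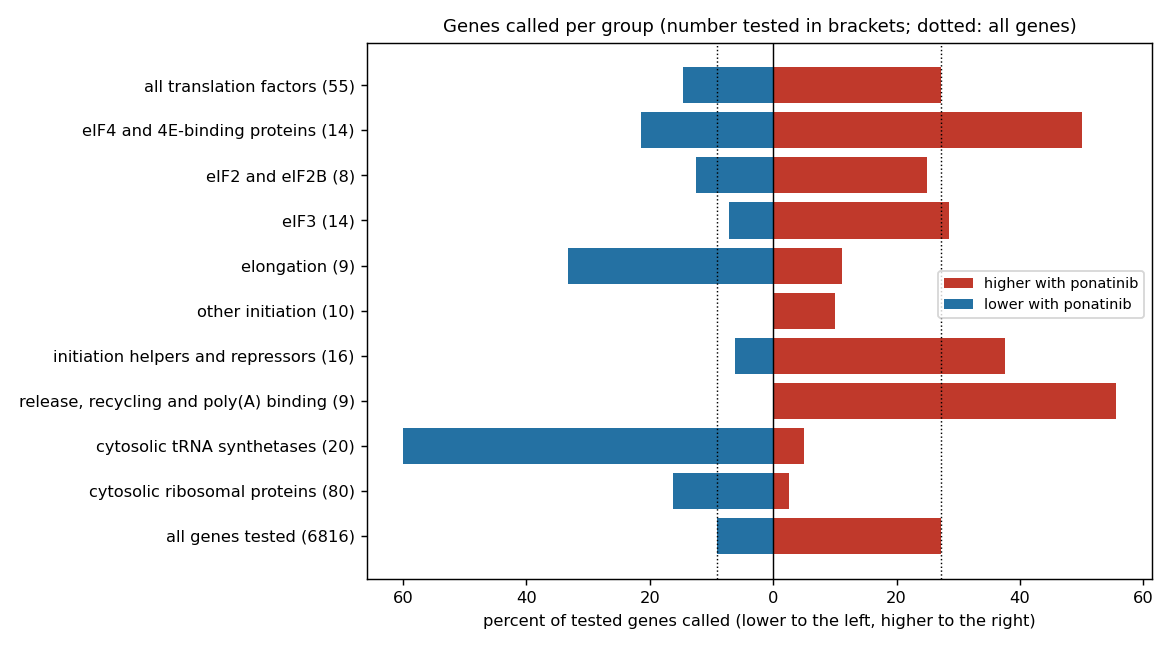
Percent of tested genes called lower (bars to the left) and higher (bars to the right) with ponatinib in the translation factors, their role groups and neighbouring lists, with dotted lines at the shares over all 6816 genes (9.13% lower, 27.3% higher). The eIF4 group reaches 50% higher and 21.4% lower, and the tRNA synthetases 60% lower.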

How the data were processed

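Mouse CD8 T cell RNA was measured in 3 ponatinib and 3 DMSO libraries, grouped and numbered by their titles. The authors deposited 1 table whose name speaks of normalized counts, but every deposited column sums to 1000000, as TPM do, and its values were treated as TPM. TPM keep no depth, so counting error is unknown, and they depend on the library total. Tools listed in the submitters' processing notes are Salmon 1.5.1, fastp 0.19.5 and DESeq2 1.22.1, with the build GRCm38. The sources used here do not give whether strand was kept or how transcripts were summed to genes, so reads of overlapping antisense genes cannot be told apart.

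Of 43072 rows, 20977 held single transcripts, which were added to their gene, giving 22288 genes. Gene symbols and positions were looked up in GENCODE release 21 (mouse, GRCm38) by identifier without version, which found 22011 gene rows and 20793 transcript rows. Genes averaging 10 TPM or more were compared on log2(TPM + 1), which understates changes of low genes, with limma 3.58.1 (lmFit, eBayes with trend) in R 4.3.3, two-sided, with Benjamini-Hochberg adjustment over all 6816 genes and a threshold of 0.05. The procedure was tested on simulated data. A fold given without log2 is a ratio of group mean TPM.

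The members, gene lists and motifs were chosen with earlier results of these data known. Any member could be named. Library values were given for up to 3 called, non-overlapping members per role group with the largest change and for a fixed panel. Of companion lists up to 4 genes with the smallest p could be named, of which the text names some. Further members and transcripts and the companion gene Paip2 were named after their values were seen. A planned ranking of genes by likeness to Eif4ebp1 is not given, since the 6 libraries fall into separate clusters.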

Additional observations from a re-analysis of the deposited data

How the results depend on the processing

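Of the 23 called members, 13 kept their call under all 15 alternatives, 10 lost it under at least 1, and 0 changed sign. With gene rows alone, elongation had 3 higher members and a median log2 fold change of -0.069, and the other initiation factors had 2 higher. With medians of ratios, the members numbered 7 higher with a median of -0.044. In that setting eIF2 and eIF2B had 2 lower and a median of 0.0051, eIF3 had 0 higher and a median of -0.060, eIF4 had 3 higher and a median of 0.11, elongation had 5 lower and a median of -0.20, and the other initiation factors had a median of -0.072. With quantile normalization the medians were 0.0069 over the members, 0.032 for eIF2 and eIF2B, -0.019 for eIF3 (with 0 higher), 0.15 for eIF4, 0.0069 for elongation and -0.030 for the other initiation factors. All genes then numbered 1247 higher and 989 lower. With robust empirical Bayes, elongation had 2 higher. Leaving out 1 library gave 7 to 17 higher and 6 to 8 lower members, 0 to 4 higher eIF3 genes with a median of 0.032 to 0.070, 3 to 8 higher eIF4 genes, 1 to 2 higher and 1 to 3 lower elongation genes and 1 to 2 higher other initiation factors. Each of these fits also held fewer libraries, and the cause of the differences was not tested. Whether replicate numbers pair the samples is not known. Deviations from the group mean correlated at -0.10, 0.114 and 0.0231 between libraries of the same number. Not every library correlated best with its own number. With 3 libraries per group, these values cannot tell whether libraries of the same number share a source. With replicate block, 14 members were higher and 8 lower, and Eif4g3 was the member no longer called (adjusted p = 0.0563). Within the first 250 bases of the promoter windows, before the start, 0 members held TGACGTCA. TPM carry no read numbers, which leaves low genes such as Eef2k without a counting error.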
